A study of Drosophila melanogaster with 20 samples.

Results

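The genes described are 10 core regulators of epithelial apical and basolateral polarity, taken by symbol: crb, sdt, Patj, aPKC, par-6, baz, scrib, dlg1, l(2)gl and yrt. All 10 were found among the 17714 genes of the files, and all 10 were among the 11154 genes tested, with mean counts per library between 2532.6 (Patj) and 27217.5 (l(2)gl). RNA of whole Drosophila embryos of mixed stage, laid over 24 h at 25 °C, was sequenced from 10 groups of 2 libraries each (n = 2 at every value). Embryos of 3 kinds were compared with WT. The first expressed UAS-wnt4, UAS-otk1 or both (UAS-otk1 UAS-wnt4). The second expressed a hairpin against a single gene, labelled otk2 RNAi, wnt4 RNAi or otk1 RNAi, and the third a pair of hairpins, labelled otk1 RNAi wnt4 RNAi, otk2 RNAi wnt4 RNAi or otk1 RNAi otk2 RNAi. Transgenes were driven by a maternal tubulin GAL4 recombined with daughterless GAL4, which act in the germline and in nearly all embryonic tissue, so no cell type was targeted. The full genotype of the WT embryos is not stated in the sources. Nor do they state whether both libraries of a group stem from separate egg collections, and the p-values here therefore reflect library-to-library spread, which may be technical.

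Epithelial cells sort their surface into an apical and a basolateral domain, and the genes that do this fall into sets that exclude each other. The Crumbs complex (the transmembrane protein Crb with the scaffolds Sdt and Patj) and the Par complex (the kinase aPKC with its partner Par-6 and the scaffold Baz) define the apical side and position the adherens junction. Scrib, Dlg1, L(2)gl and the FERM protein Yrt hold the basolateral side, and aPKC and L(2)gl antagonise each other. In the fly embryo these genes are known from the blastoderm and the epidermis, and the Par proteins and L(2)gl also act in dividing neuroblasts.

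Each gene has a single locus in genome build dm6, given here as annotated in BDGP6 release 115. The Crumbs complex genes are crb (FBgn0259685) on chromosome 3R from 24295078 to 24314541, sdt (FBgn0261873) on X from 8178549 to 8240474 and Patj (FBgn0067864) on 3L from 1798803 to 1802184, all on the plus strand. The Par complex genes are aPKC (FBgn0261854) on 2R from 14944458 to 14962969 (minus strand), par-6 (FBgn0026192) on X from 17703352 to 17707096 and baz (FBgn0000163) on X from 17160006 to 17200728, the last 2 on the plus strand. On the basolateral side, scrib (FBgn0263289) lies on 3R from 26536350 to 26604051 and dlg1 (FBgn0001624) on X from 11369665 to 11409776, both on the plus strand. L(2)gl is encoded by l(2)gl (FBgn0002121) on 2L from 9839 to 21376, near the chromosome end, and Yrt by yrt (FBgn0004049) on 3R from 13428867 to 13434984, both on the minus strand. Values are sums over whole genes, exons and UTRs included. Exons of Patj share 177 of their 3294 bases with JTBR on the opposite strand, those of baz share 59 bases with TTLL1A and a transposon, and those of aPKC share 12 bases with CG10257. Exons of l(2)gl share 21 bases with a transposon on the opposite strand and 62 with another on its own. The sources do not say if reads were counted by strand, and reads from these stretches cannot be told apart.

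Libraries held 33641557 to 41753919 counts. In the targeted genes, Wnt4 had 3050 and 2463 CPM (counts divided by the TMM-adjusted library size) in UAS-wnt4 against 126 and 107 CPM in WT, and otk (otk1) had 2194 and 1984 CPM in UAS-otk1 against 199 and 178 CPM in WT. The hairpin groups for otk1 alone had 56.0 and 46.0 CPM of otk, and those for otk2 alone 28.4 and 23.6 CPM of otk2 against 67.5 and 61.6 CPM in WT. In otk1 RNAi otk2 RNAi otk had 91.3 and 60.4 CPM, more than in otk1 RNAi, and otk2 21.7 and 18.8 CPM. Genes that were not the target also passed the test as lower than WT. They were Wnt4 in otk2 RNAi (-0.66) and otk1 RNAi (-0.38), otk2 in otk1 RNAi (-0.40), and otk (-0.62) and otk2 (-0.45) in the libraries labelled wnt4 RNAi. Wnt4 was not lowered in the libraries labelled wnt4 RNAi, at 159 and 143 CPM against 126 and 107 CPM in WT (log2 fold change 0.38 ± 0.15, edgeR adjusted p = 0.0544). In the double hairpin groups Wnt4 did not pass the test against the same otk hairpin without wnt4 (-0.11 ± 0.15 and 0.10 ± 0.15). These groups are therefore called by their label, and any direction drawn from them is that of the libraries so labelled. A stage score (mean log2 CPM of 21 genes of late embryonic tissues minus that of 16 genes of the egg and early embryo) was 2.90 and 1.38 in WT and 2.10 and 0.40 in UAS-wnt4. It lay between 0.17 and 0.77 in UAS-otk1, UAS-otk1 UAS-wnt4 and otk2 RNAi, and between -0.69 and 0.33 in the 5 other hairpin groups. Epidermal marker genes (8 of 8 tested) summed to 1435 to 1824 CPM in those 5 groups and 2152 to 2531 CPM in WT, and none of the markers tested was at 0. All libraries held epidermal, muscle and neural RNA, and the stage score moved with the groups. Its part in the differences below was not tested beyond a fit with the score as a covariate. In RNA of whole embryos, fewer cells of a type and less RNA per cell cannot be told apart.

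Levels between genes were compared in TPM, in which counts are corrected for transcript length and scaled to a common total. Changes between groups were read in CPM, and TPM did not always give the same order of libraries. L(2)gl, a WD repeat protein that aPKC phosphorylates, was the most abundant, with 111 to 185 TPM over the 20 libraries and a median of 156.8 TPM. The next was dlg1, a scaffold of the septate junction, with a median of 63.0 TPM, and aPKC (62.3), scrib (57.6), yrt (46.6), par-6 (43.7), baz (29.9), sdt (28.7), crb (25.7) and Patj (23.2 TPM) followed. Only the first step of that order separated neighbours fully, l(2)gl being above dlg1 with ranges that did not overlap. Scrib was above yrt and par-6 above baz in 20 of 20 libraries, although their ranges overlapped. The other neighbours changed places, dlg1 being above aPKC in 9 of 20 libraries and baz above sdt in 10 of 20. Every gene lay above the middle of the genes tested, from the 59.6th percentile (Patj) to the 94.2th (l(2)gl).

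Across the 10 groups, 9 of the 10 genes changed (edgeR's quasi-likelihood test, adjusted p under 0.1), where 64.1% of all genes tested did. The adjusted p was lowest for sdt (0.00015), followed by par-6 (0.000426) and yrt (0.000807), and crb did not pass (0.159). In TPM the spread of the levels was widest for sdt (highest library 2.91 times the lowest), Patj (2.87) and crb (2.55), and narrowest for dlg1 (1.55) and baz (1.59). In CPM, the scale of the tests, the order differed. The SD of log2 CPM was largest for par-6 (0.41), yrt (0.35) and aPKC (0.31), and smallest for l(2)gl and crb (0.18 each).

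**Figure D1:**
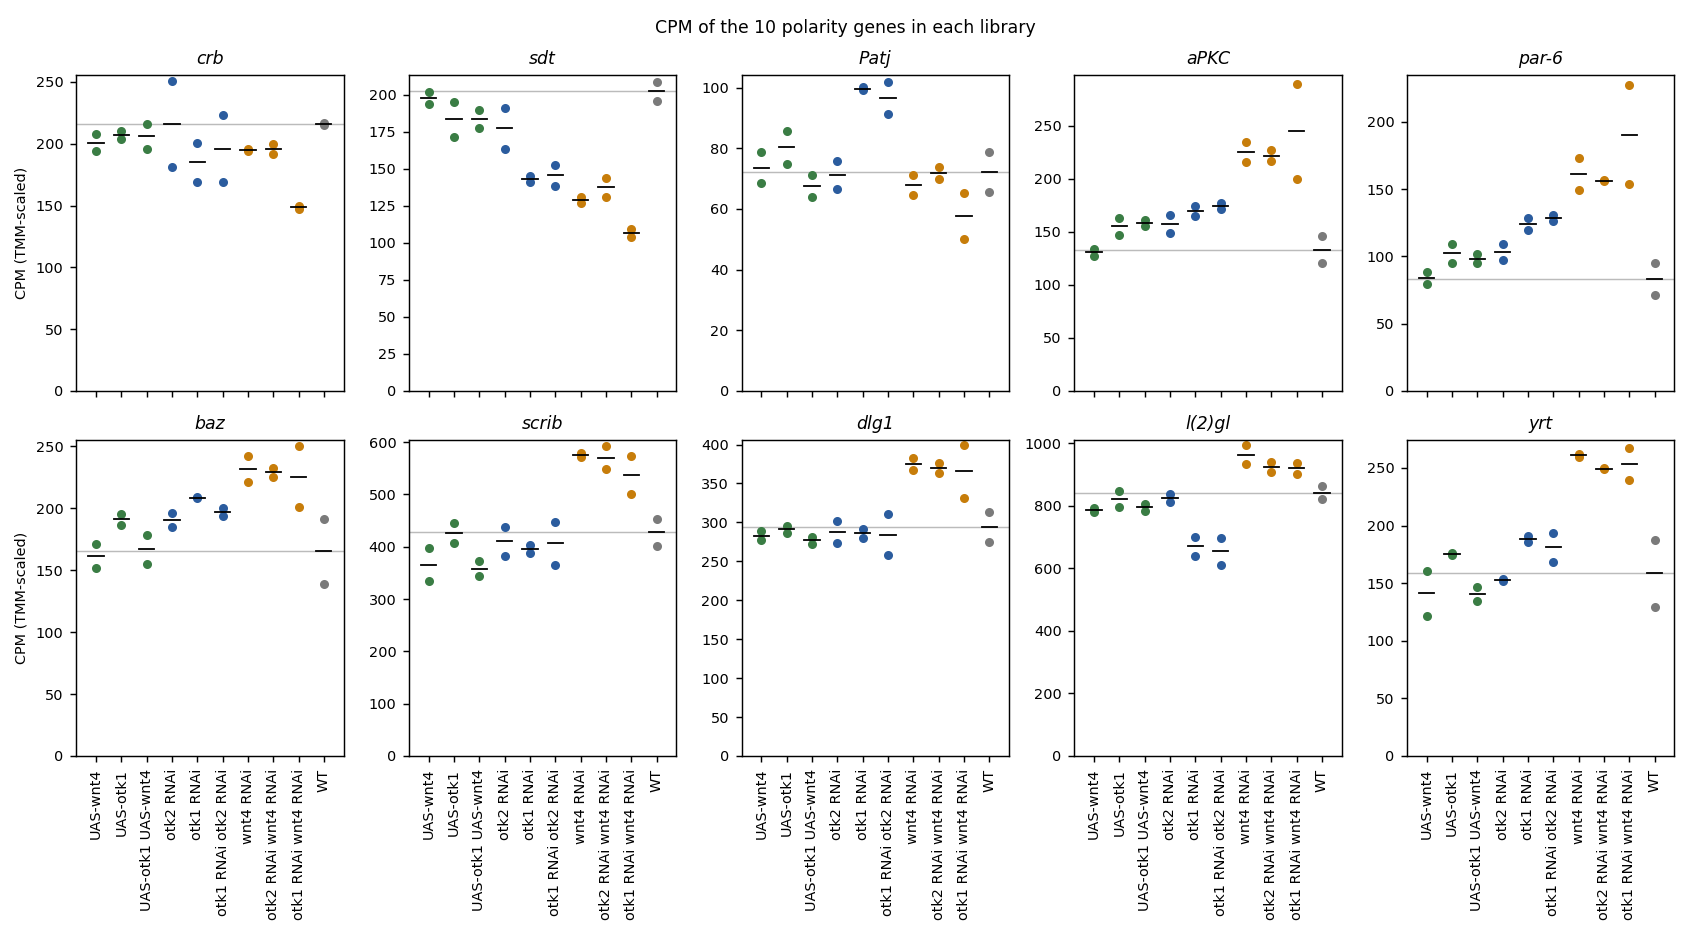
CPM (y axis, from 0, scaled by TMM) of each polarity gene in each group (x axis). Points are the 2 libraries of a group, black bars their mean and the grey line the WT mean. Green marks overexpression, blue hairpins without wnt4 in the label, orange hairpins with it and grey WT. Par-6 and aPKC are high and sdt is low in the groups labelled with wnt4 RNAi, and Patj is high and l(2)gl low in otk1 RNAi and otk1 RNAi otk2 RNAi.

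The first comparison asked how overexpression of Wnt4 and otk1, or the otk2 hairpin, moved the polarity genes. None of the 10 genes passed the test in UAS-wnt4, UAS-otk1, UAS-otk1 UAS-wnt4 or otk2 RNAi against WT, where 0.61%, 2.84%, 4.82% and 1.78% of all genes tested did. The count at an unadjusted p under 0.05 was also 0 in each, with edgeR and with DESeq2. Par-6, which binds Cdc42 and controls aPKC, had 109.6 and 94.9 CPM in UAS-otk1, against 71.4 and 95.3 CPM in WT (0.29 ± 0.17, adjusted p = 0.266). It had 97.3 and 109.4 CPM in otk2 RNAi (0.31 ± 0.17 against WT, adjusted p = 0.328). The lowest WT library was below these groups, and the other WT library lay near or within their range. Scrib, the leucine-rich repeat and PDZ scaffold, had 335.0 and 396.7 CPM in UAS-wnt4, against 401.6 and 453.7 CPM in WT (-0.23 ± 0.13, adjusted p = 0.931). It had 372.9 and 343.8 CPM in UAS-otk1 UAS-wnt4 (-0.26 ± 0.13 against WT, adjusted p = 0.247). Both overexpression groups with wnt4 lay below both WT libraries for scrib, without passing the test. These comparisons rest in part on 1 control library: without WT replicate 2, par-6 (0.52), baz (0.46) and yrt (0.44) passed in UAS-otk1 and par-6 (0.53) and baz (0.46) in otk2 RNAi, where 35.9% and 21.5% of all genes tested passed in the same fits. Counts of 3 and 2 in 10 are near those shares.

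The groups labelled with wnt4 RNAi or otk1 RNAi differed from WT in 5 to 9 of the polarity genes. In the libraries labelled wnt4 RNAi 8 of 10 passed (7 higher, 1 lower), beside 59.2% of all genes tested (29.7% higher, 29.5% lower). In otk1 RNAi 6 passed (4 higher, 2 lower; background 45.5%, of which 21% higher and 24.5% lower). The libraries labelled otk1 RNAi wnt4 RNAi had 9 (6 higher, 3 lower) beside 62.2% (30.9% and 31.4%). In those labelled otk2 RNAi wnt4 RNAi 7 passed (6 higher, 1 lower) beside 54.7% (27.7% and 27.0%), and in otk1 RNAi otk2 RNAi 5 (3 higher, 2 lower) beside 46.8% (22.5% and 24.4%). With 10 genes, counts in either direction this near the background are no result about the polarity genes as a set. The count of higher genes, 6 or 7 of 10 in the 3 groups with wnt4 RNAi in the label, was above the background in that direction, a difference that was not tested. The median log2 fold change of the 10 genes was 0.39, 0.10, 0.32, 0.37 and 0.07 in the order given, and that of all genes -0.03, 0.00, -0.08, -0.03 and 0.02. These 5 comparisons share the WT libraries.

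**Figure D2:**
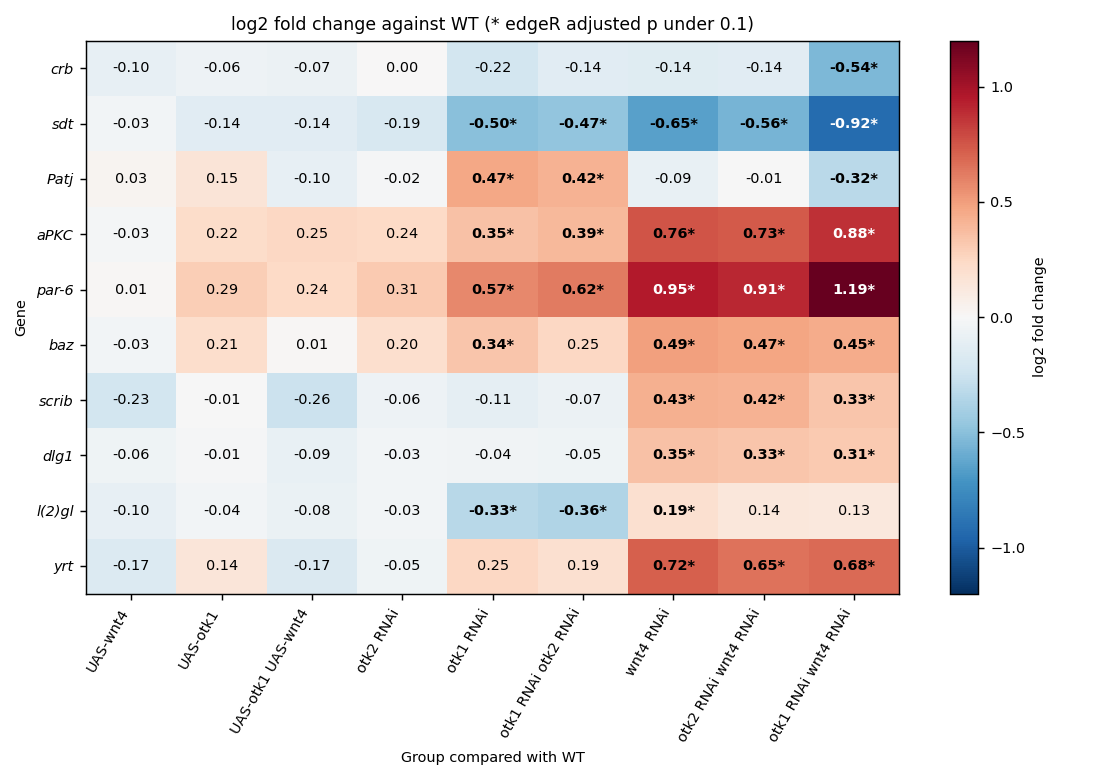
Log2 fold change against WT of each polarity gene (rows) in each of the 9 other groups (columns), from edgeR. Colour and number give the change, and bold with an asterisk marks an adjusted p under 0.1. The 4 left columns hold no call. In the 5 right columns sdt is lower and aPKC and par-6 are higher each time, from 0.35 (aPKC, otk1 RNAi) to 1.19 (par-6, otk1 RNAi wnt4 RNAi).

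The Crumbs complex scaffold Sdt was the gene lowered in all 5 of these groups. Sdt had 104.0 and 109.2 CPM in the libraries labelled otk1 RNAi wnt4 RNAi, against 196.0 and 208.4 CPM in WT (-0.92 ± 0.11, edgeR adjusted p = 3.1e-05). It had 126.9 and 131.1 CPM in those labelled wnt4 RNAi (-0.65 ± 0.11 against WT, adjusted p = 0.000561) and 131.2 and 144.0 CPM in those labelled otk2 RNAi wnt4 RNAi (-0.56 ± 0.11, adjusted p = 0.00185). In otk1 RNAi it had 141.3 and 145.0 CPM (-0.50 ± 0.11, adjusted p = 0.00735), and in otk1 RNAi otk2 RNAi 152.7 and 138.3 CPM (-0.47 ± 0.11, adjusted p = 0.00619). All 10 libraries lay below both WT libraries, and the call held in each of the 5 comparisons when any 1 of its 4 libraries was left out. Without a call, sdt was also below both WT libraries in UAS-otk1 (171.6 and 195.3 CPM), UAS-otk1 UAS-wnt4 (177.6 and 189.6 CPM) and otk2 RNAi (191.3 and 163.4 CPM). With the stage score as a covariate sdt remained called in the libraries labelled otk1 RNAi wnt4 RNAi (-0.89) and wnt4 RNAi (-0.61), and not in the other 3 groups (-0.43 to -0.52).

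Crb, the transmembrane protein that recruits Sdt, moved less. It had 149.8 and 147.1 CPM in the libraries labelled otk1 RNAi wnt4 RNAi, against 214.9 and 216.4 CPM in WT (-0.54 ± 0.15, adjusted p = 0.0085). The groups did not overlap, and the change was -0.57 with the stage score as a covariate. Without a call, crb was also below both WT libraries in UAS-wnt4 (193.9 and 208.0 CPM) and UAS-otk1 (204.0 and 210.2 CPM). In the other 4 hairpin groups named above crb lay between 169.2 and 222.9 CPM, with changes of -0.14 to -0.22 that did not pass.

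Patj, the multi-PDZ scaffold of the same complex, went in opposite directions in groups that share the otk1 hairpin. It had 99.2 and 100.1 CPM in otk1 RNAi, against 65.6 and 78.7 CPM in WT (0.47 ± 0.14, adjusted p = 0.0264). In otk1 RNAi otk2 RNAi it had 101.7 and 91.3 CPM (0.42 ± 0.14 against WT, adjusted p = 0.0342). In CPM both groups lay above both WT libraries. In TPM otk1 RNAi otk2 RNAi (33.63 and 27.91) overlapped with WT (23.05 and 28.25). In the libraries labelled otk1 RNAi wnt4 RNAi Patj had 65.2 and 50.1 CPM (-0.32 ± 0.14 against WT, adjusted p = 0.0683), with both libraries below the lower WT library, and this call was lost without replicate 2 of that group (-0.14) or WT replicate 2 (-0.19). Without WT replicate 1 the rises were 0.34 in otk1 RNAi and 0.29 in otk1 RNAi otk2 RNAi and no longer passed, and the calls were also lost without otk1 RNAi replicate 2 (0.46) and without otk1 RNAi otk2 RNAi replicate 1 (0.34). With the stage score as a covariate none of the 3 groups kept the call (0.32 in otk1 RNAi, 0.26 in otk1 RNAi otk2 RNAi and -0.43 in the libraries labelled otk1 RNAi wnt4 RNAi). JTBR, which overlaps Patj on the opposite strand and was looked up after the values of Patj were seen, had 21.8 and 17.9 CPM in otk1 RNAi, 24.8 and 35.4 CPM in the libraries labelled otk1 RNAi wnt4 RNAi and 11.9 and 12.1 CPM in WT. It was thus higher than in WT in the group where Patj was higher and in the group where Patj was lower.

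Of the Par complex, par-6 rose most. It had 153.7 and 227.4 CPM in the libraries labelled otk1 RNAi wnt4 RNAi, against 71.4 and 95.3 CPM in WT (1.19 ± 0.17, adjusted p = 0.0001, a fold of 2.29). The libraries labelled wnt4 RNAi had 173.2 and 149.7 CPM (0.95 ± 0.17 against WT, adjusted p = 0.000856) and those labelled otk2 RNAi wnt4 RNAi 156.0 and 156.7 CPM (0.91 ± 0.17, adjusted p = 0.00165). In otk1 RNAi par-6 had 128.6 and 119.4 CPM (0.57 ± 0.17, adjusted p = 0.0244), and in otk1 RNAi otk2 RNAi 130.9 and 126.1 CPM (0.62 ± 0.17, adjusted p = 0.0142). All 10 libraries lay above both WT libraries, and the 6 with wnt4 RNAi in the label above the 4 without. Both otk2 RNAi libraries (97.3 and 109.4 CPM) were above WT as well, without a call. The 2 libraries labelled otk1 RNAi wnt4 RNAi stood apart from each other, and without replicate 2 the change was 0.89. The calls in otk1 RNAi (0.38) and otk1 RNAi otk2 RNAi (0.43) were lost without WT replicate 1, and that in otk1 RNAi also without its replicate 1 (0.52).

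aPKC, the kinase that Par-6 binds, followed the same order. It had 200.2 and 289.8 CPM in the libraries labelled otk1 RNAi wnt4 RNAi, against 120.6 and 146.0 CPM in WT (0.88 ± 0.15, adjusted p = 0.000283). Those labelled wnt4 RNAi had 234.6 and 215.6 CPM (0.76 ± 0.15 against WT, adjusted p = 0.00136), and those labelled otk2 RNAi wnt4 RNAi 226.9 and 216.7 CPM (0.73 ± 0.15, adjusted p = 0.00222). The changes were smaller in otk1 RNAi (174.5 and 164.9 CPM, 0.35 ± 0.15, adjusted p = 0.081) and otk1 RNAi otk2 RNAi (171.8 and 177.5 CPM, 0.39 ± 0.15, adjusted p = 0.0532). None of these 10 libraries overlapped with WT. The same held, without a call, in UAS-otk1 (163.4 and 147.2 CPM), UAS-otk1 UAS-wnt4 (155.2 and 161.6 CPM) and otk2 RNAi (148.5 and 166.2 CPM), all above WT. The call in otk1 RNAi was lost without WT replicate 1 (0.22) or either library of the group (0.31 and 0.39), and that in otk1 RNAi otk2 RNAi without WT replicate 1 (0.26) or either of its own (0.41 and 0.37). Once the stage score was added as a covariate, only the libraries labelled otk1 RNAi wnt4 RNAi kept a call for par-6 (0.84) and aPKC (0.62). The values were 0.55 and 0.46 in the libraries labelled wnt4 RNAi, 0.51 and 0.44 in those labelled otk2 RNAi wnt4 RNAi, 0.12 and 0.02 in otk1 RNAi and 0.13 and 0.025 in otk1 RNAi otk2 RNAi, par-6 before aPKC.

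Baz, the Par-3 scaffold that places the adherens junction, had 241.9 and 221.3 CPM in the libraries labelled wnt4 RNAi, against 138.8 and 191.4 CPM in WT (0.49 ± 0.15, adjusted p = 0.0129). The WT libraries differed more from each other than those of any other group. In TPM, baz had 26.41 and 27.03 in the libraries labelled otk1 RNAi wnt4 RNAi, between the WT libraries (22.39 and 31.65). The call was also made in the libraries labelled otk2 RNAi wnt4 RNAi (0.47) and otk1 RNAi wnt4 RNAi (0.45) and in otk1 RNAi (0.34 ± 0.15, adjusted p = 0.0834), and it was lost in all 4 without WT replicate 1 (0.13 to 0.27). It was also lost in otk1 RNAi without either of its libraries (0.34 each) and in the libraries labelled otk1 RNAi wnt4 RNAi without replicate 2 (0.29). Without WT replicate 2 baz passed in otk1 RNAi otk2 RNAi (0.50).

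The ratio of apical genes to each other therefore shifted between groups. Par-6 over sdt, in TPM, was 2.97 and 4.21 in the libraries labelled otk1 RNAi wnt4 RNAi, 2.33 and 2.78 in those labelled wnt4 RNAi and 2.23 and 2.43 in those labelled otk2 RNAi wnt4 RNAi. It was 1.64 and 1.80 in otk1 RNAi and 1.70 and 1.78 in otk1 RNAi otk2 RNAi, and 0.66 and 0.85 in WT. Sdt was the more abundant of the pair in both WT libraries and the less abundant in all 10 hairpin libraries listed. The shift was not particular to them. The ratio was also above both WT libraries in UAS-otk1 (0.94 and 1.24), UAS-otk1 UAS-wnt4 (1.00 and 1.01) and otk2 RNAi (0.98 and 1.29), where neither gene was called. In UAS-wnt4 (0.73 and 0.88) it overlapped with WT.

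Of the basolateral genes scrib, dlg1 and yrt rose in the groups labelled with wnt4 RNAi, and l(2)gl fell in the otk1 hairpin groups without that label. Yrt, a FERM protein that limits Crb activity, had 262.4 and 259.4 CPM in the libraries labelled wnt4 RNAi, against 129.4 and 187.5 CPM in WT (0.72 ± 0.16, adjusted p = 0.00247). It had 239.5 and 267.4 CPM in those labelled otk1 RNAi wnt4 RNAi (0.68 ± 0.16 against WT, adjusted p = 0.00265) and 249.8 and 248.9 CPM in those labelled otk2 RNAi wnt4 RNAi (0.65 ± 0.16, adjusted p = 0.00541). In CPM these 6 libraries were above both WT libraries, whose own values were far apart. In TPM otk1 RNAi wnt4 RNAi replicate 2 (46.94) lay between the WT libraries (34.1 and 50.62). In otk1 RNAi (0.25 ± 0.16) and otk1 RNAi otk2 RNAi (0.19 ± 0.16) yrt did not pass, except without WT replicate 2 (0.54 and 0.48).

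Scrib had 580.2 and 572.5 CPM in the libraries labelled wnt4 RNAi, against 401.6 and 453.7 CPM in WT (0.43 ± 0.13, adjusted p = 0.0128). Dlg1, a MAGUK scaffold, had 383.0 and 367.2 CPM there, against 275.4 and 313.2 CPM in WT (0.35 ± 0.12, adjusted p = 0.0231). Both also passed in the libraries labelled otk2 RNAi wnt4 RNAi (0.42 for scrib, 0.33 for dlg1) and otk1 RNAi wnt4 RNAi (0.33 and 0.31). In CPM every library of all 3 groups was above both WT libraries. In TPM this did not hold in the libraries labelled otk1 RNAi wnt4 RNAi. Scrib had 60.31 and 57.4 TPM there (WT 54.52 and 64.64), and dlg1 62.08 and 60.94 TPM (WT 61.84 and 71.76). In otk1 RNAi and otk1 RNAi otk2 RNAi the changes of scrib and dlg1 were between -0.11 and -0.04 and did not pass. Without WT replicate 1, dlg1 was lost in all 3 groups (0.22 to 0.25) and scrib in the 2 double hairpin groups (0.24 and 0.32). Both genes were also lost without otk1 RNAi wnt4 RNAi replicate 2 (0.24 for scrib, 0.18 for dlg1) and without otk2 RNAi wnt4 RNAi replicate 1 (0.36 and 0.31).

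L(2)gl had 699.3 and 640.9 CPM in otk1 RNAi, against 820.9 and 864.3 CPM in WT (-0.33 ± 0.09, adjusted p = 0.0186). It had 696.8 and 611.6 CPM in otk1 RNAi otk2 RNAi (-0.36 ± 0.09 against WT, adjusted p = 0.00954). In CPM these 4 libraries were the lowest of the 20, and the call in otk1 RNAi was lost without its replicate 2 (-0.27). In the libraries labelled wnt4 RNAi l(2)gl had 993.1 and 933.1 CPM (0.19 ± 0.09, adjusted p = 0.0927), a call that was lost under RLE scaling, without the filter on low counts and without WT replicate 1 or either library of the group. The libraries labelled otk1 RNAi wnt4 RNAi (902.2 and 938.0 CPM) and otk2 RNAi wnt4 RNAi (940.5 and 909.6 CPM) were above both WT libraries without passing. In TPM the direction differed. Those labelled otk1 RNAi wnt4 RNAi (153.35 and 131.15) were below both WT libraries (171.73 and 184.58). Those labelled wnt4 RNAi (169.56 and 176.37) or otk2 RNAi wnt4 RNAi (179.63 and 171.52) overlapped with WT.

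Once the stage score entered as a covariate, the calls of baz, scrib, dlg1, l(2)gl and yrt against WT were all lost. The values of baz, scrib, dlg1 and yrt in the groups labelled with wnt4 RNAi were then 0.08 to 0.25, whereas those of l(2)gl were -0.38 in otk1 RNAi and -0.42 in otk1 RNAi otk2 RNAi. Only 1 library outside WT, UAS-wnt4 replicate 1, had a score within the range of WT, so that fit extrapolates, and a lost call does not decide the part of stage.

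Groups that share a hairpin were compared directly, without WT. The libraries labelled otk1 RNAi wnt4 RNAi differed from otk1 RNAi in 8 of the 10 genes (6 higher, 2 lower), beside 31.2% of all genes tested (19.5% higher, 11.7% lower). Patj had 65.2 and 50.1 CPM in the libraries labelled with both hairpins, against 99.2 and 100.1 CPM in otk1 RNAi (-0.79 ± 0.14, adjusted p = 0.00315), and sdt was lower as well (-0.43 ± 0.11, adjusted p = 0.013). Higher were par-6 (0.62 ± 0.17, adjusted p = 0.0188), aPKC (0.53 ± 0.15, adjusted p = 0.0199) and the basolateral l(2)gl (0.46 ± 0.09, adjusted p = 0.00465), scrib (0.44), yrt (0.43) and dlg1 (0.35). Crb (-0.32 ± 0.15, adjusted p = 0.148) and baz (0.11 ± 0.14, adjusted p = 0.646) did not pass. The stage scores of these groups did not overlap (0.33 and -0.01 in the libraries labelled with both hairpins, -0.35 and -0.48 in otk1 RNAi). With the score as a covariate 8 genes passed too, beside 37.6% of all genes tested. That fit does not decide the part of stage, which was not tested otherwise. The calls of aPKC, par-6, scrib, dlg1 and yrt were lost without replicate 2 of the otk1 RNAi wnt4 RNAi libraries (0.222 to 0.357). They were also lost without otk1 RNAi replicate 2 (0.325 to 0.567). Calls over all genes fell in both fits too. Patj, l(2)gl and sdt remained called whichever of the 4 libraries was left out. In TPM the libraries with both labels overlapped with otk1 RNAi for l(2)gl (153.35 and 131.15 against 139.55 and 128.69). They also overlapped for dlg1 (62.08 and 60.94 against 63.55 and 60.93) and yrt (51.08 and 46.94 against 46.29 and 47.98). For the other genes called they did not.

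A similar comparison of the libraries labelled otk2 RNAi wnt4 RNAi with otk2 RNAi gave 6 genes (5 higher, 1 lower), beside 20.8% of all genes tested (14.1% higher, 6.75% lower). Yrt had 249.8 and 248.9 CPM in the libraries labelled with both hairpins, against 153.8 and 151.7 CPM in otk2 RNAi (0.71 ± 0.16, adjusted p = 0.0132). Par-6 (0.60), aPKC (0.49), scrib (0.48) and dlg1 (0.36) were also higher, and sdt was lower (-0.37 ± 0.11, adjusted p = 0.0394). Patj did not differ by the test (0.01 ± 0.14). The stage scores were -0.53 and 0.28 in the libraries labelled with both hairpins and 0.70 and 0.72 in otk2 RNAi. With the score as a covariate yrt (0.52), scrib (0.39) and sdt (-0.35) kept the call, beside 12.4% of all genes tested. Par-6 (0.45), aPKC (0.38) and dlg1 (0.30) lost it. Only yrt remained called whichever library was left out. Without otk2 RNAi wnt4 RNAi replicate 1 the other calls were lost (-0.3 for sdt, 0.338 to 0.6 for the rest). Without otk2 RNAi replicate 1 sdt (-0.281), aPKC (0.383), par-6 (0.482) and dlg1 (0.404) were lost. Calls over all genes fell in both fits too.

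The otk hairpins were set against each other. The otk2 RNAi libraries had 75.9 and 66.7 CPM of Patj against 99.2 and 100.1 CPM in otk1 RNAi (-0.48 ± 0.14, adjusted p = 0.0863), which was the only call among the 10 genes beside 5.58% of all genes tested. It was lost whichever of the 4 libraries was left out. L(2)gl, with 837.5 and 810.9 CPM in otk2 RNAi against 699.3 and 640.9 CPM in otk1 RNAi, just missed (0.30 ± 0.09, adjusted p = 0.101). In otk1 RNAi otk2 RNAi against otk2 RNAi, Patj was higher (0.44 ± 0.14, adjusted p = 0.0968) and l(2)gl lower (-0.33 ± 0.09, adjusted p = 0.0582), 2 calls beside 8.68% of all genes tested. Neither call held whichever library was left out, and both were lost without either otk2 RNAi library or otk1 RNAi otk2 RNAi replicate 2. Calls over all genes fell in those fits too.

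UAS-otk1 against otk1 RNAi gave 0 calls beside 3.56% of all genes tested. At an unadjusted p under 0.05 edgeR listed 3 genes there, Patj (-0.31), l(2)gl (0.29) and sdt (0.36), and DESeq2 called 2 after adjustment, l(2)gl (0.29) and sdt (0.36).

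Whether a pair of hairpins did more or less than the sum of each alone was tested as an interaction. For otk1 and otk2 none of the 10 genes passed beside 0.17% of all genes tested, and neither edgeR nor DESeq2 gave any unadjusted p under 0.05 (0 genes), and the terms ran from -0.29 ± 0.20 (baz) to 0.21 ± 0.15 (sdt). For otk1 RNAi and wnt4 RNAi, Patj alone passed (-0.70 ± 0.20, adjusted p = 0.0514) beside 19.7% of all genes tested. Its log2 change in the libraries with both labels (-0.32) was below the sum of the changes in otk1 RNAi (0.47) and in those labelled wnt4 RNAi (-0.09). That call was lost in 6 of the 8 fits that left out a library, the exceptions being those without otk1 RNAi wnt4 RNAi replicate 1 or WT replicate 2, and it was also lost with the stage score as a covariate (-0.54, adjusted p = 0.745) and in a fit of only the groups compared (-0.77, adjusted p = 0.102). Without WT replicate 2, baz (-0.63) and yrt (-0.58) passed as well.

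The files also give the mean length of each gene's transcripts, weighted by their estimated abundance, which moves only with the mix of transcripts and not with the level. It was tested with limma on the log2 scale over 6207 genes whose length varied, of which 14.6% differed across the 10 groups. Of the polarity genes aPKC (adjusted p = 0.00439), par-6 (0.000468) and scrib (0.00432) did, and the same 3 passed with a minimum of 100 counts, with the replicate number as a block, with the stage score as a covariate and without either WT library. The other 7 did not pass, dlg1 being nearest (adjusted p = 0.115), and the mean length of Patj stayed within 5.12 bases and that of l(2)gl within 11.8 bases.

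Scrib has 18 annotated transcripts of 4752 to 9438 bases. Its mean length was 7384 and 7298 bases in the libraries labelled otk1 RNAi wnt4 RNAi, 7369 and 7461 in those labelled wnt4 RNAi and 7365 and 7481 in those labelled otk2 RNAi wnt4 RNAi, against 8035 and 7818 bases in WT. The log2 changes against WT were -0.11 ± 0.01, -0.10 ± 0.01 and -0.09 ± 0.01 (limma adjusted p of 0.00141, 0.00326 and 0.00446). It was also shorter in otk1 RNAi (7594 and 7555 bases, -0.07 ± 0.01, adjusted p = 0.0308) and otk1 RNAi otk2 RNAi (7632 and 7686 bases, -0.05 ± 0.01, adjusted p = 0.0861). The 6 libraries with wnt4 RNAi in the label were the shortest of the 20. aPKC, with 12 annotated transcripts, had 2864 and 2806 bases in the libraries labelled otk1 RNAi wnt4 RNAi against 3080 and 3024 bases in WT (-0.11 ± 0.01, adjusted p = 0.00117), and it passed in all 5 of these groups too. Against WT dlg1 was also called shorter in the libraries labelled otk1 RNAi wnt4 RNAi (-0.031 ± 0.0089, adjusted p = 0.0595) and yrt longer in otk1 RNAi (0.0096 ± 0.0028, adjusted p = 0.0902), although neither passed across the groups. Shorter calls against WT were made for 8.49% of all genes tested in the libraries labelled wnt4 RNAi, 4.38% in otk1 RNAi, 8.43% in those labelled otk1 RNAi wnt4 RNAi, 6.46% in those labelled otk2 RNAi wnt4 RNAi and 5.65% in otk1 RNAi otk2 RNAi. Which of the many transcripts of scrib and aPKC changed cannot be read from a mean length.

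**Figure D3:**
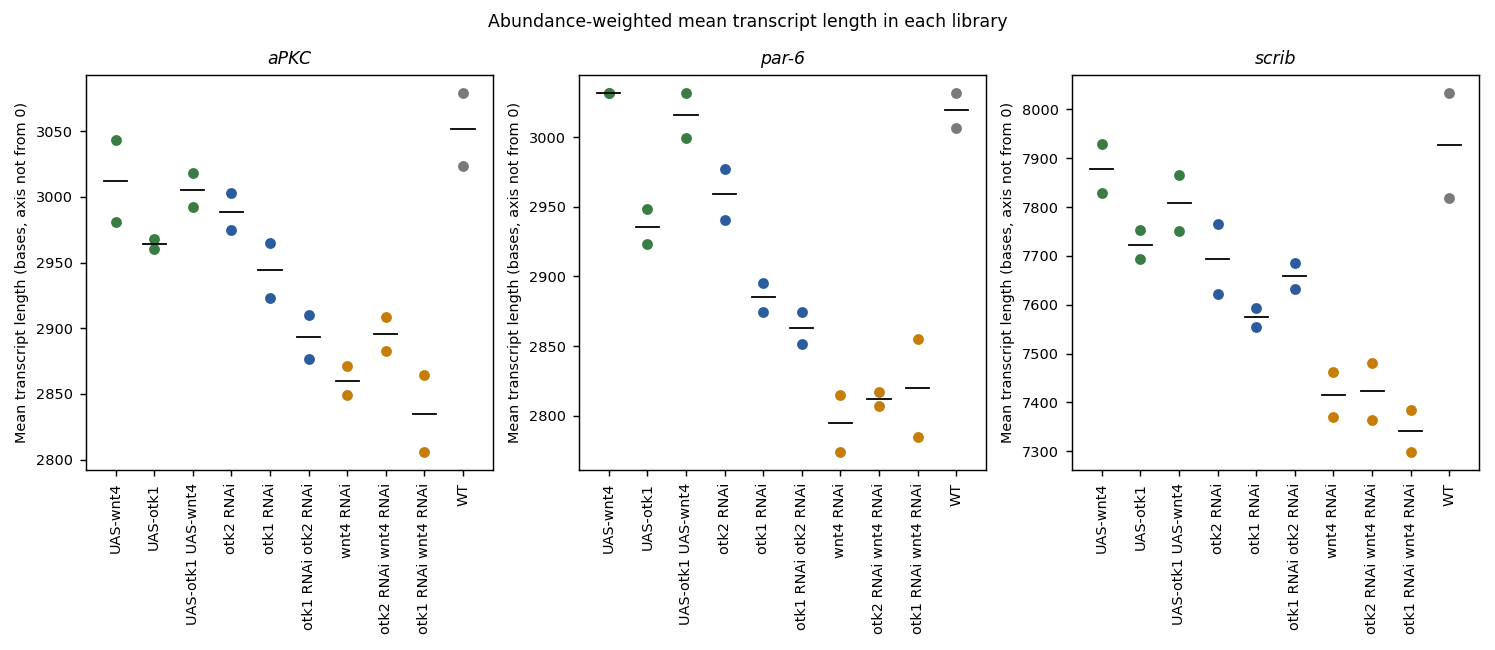
Mean transcript length in bases (y axis, not starting at 0) of aPKC, par-6 and scrib in each group (x axis), weighted by abundance. Points are the 2 libraries of a group and bars their mean. For scrib the groups labelled with wnt4 RNAi (orange) are the shortest, for aPKC and par-6 they overlap with otk1 RNAi otk2 RNAi, and WT (grey) is at or near the longest, with scrib between 7298 and 8035 bases.

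For par-6 the transcripts can be resolved. It has 2 annotated transcripts, of 3032 and 2564 bases, with the same coding sequence of 1053 bases and the same 5′ UTR of 299 bases. They differ only in the 3′ UTR, of 1677 and 1209 bases, so the mean length fixes the share of each. The short form took 37.9 and 52.8% of par-6 in the libraries labelled otk1 RNAi wnt4 RNAi, 55.1 and 46.4% in those labelled wnt4 RNAi and 46.0 and 48.2% in those labelled otk2 RNAi wnt4 RNAi. It took 29.2 and 33.6% in otk1 RNAi, 33.7 and 38.6% in otk1 RNAi otk2 RNAi and 0 and 5.49% in WT. All 10 hairpin libraries were above both WT libraries. The share was 17.8 and 23.3% in UAS-otk1 and 11.7 and 19.6% in otk2 RNAi. It overlapped with WT in UAS-otk1 UAS-wnt4 (0 and 6.92%) and UAS-wnt4 (0 in both), where 0 is RSEM's estimate and not proof of absence.

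Multiplied by the gene's TPM, the long form stayed between 26.6 and 35.3 TPM in all 20 libraries. The short form had 19.2 and 33.4 TPM in the libraries labelled otk1 RNAi wnt4 RNAi, 32.7 and 25.8 TPM in those labelled wnt4 RNAi and 14.3 and 15.5 TPM in otk1 RNAi, against 0 and 2.05 TPM in WT. In TPM, the differences of par-6 between groups thus lay mainly in the form with the short 3′ UTR as RSEM assigned it. In CPM, the scale of the tests, par-6 stood at 153.7 and 227.42 in the libraries labelled otk1 RNAi wnt4 RNAi (WT 71.36 and 95.34). Whether the long form also rose on that scale was not tested. Among 878 genes with a pair of transcripts that differ only in the 3′ UTR, the median change of the short form's share against WT was between -0.54 and 0.75 percentage points over the 9 groups. The change of par-6 was 48.0 points in the libraries labelled wnt4 RNAi and 42.6 in those labelled otk1 RNAi wnt4 RNAi, and it ranked 14th to 31st of the 878 in the 5 hairpin groups with changes in the gene's level. No test was made of the share itself beyond that of the mean length.

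**Figure D4:**
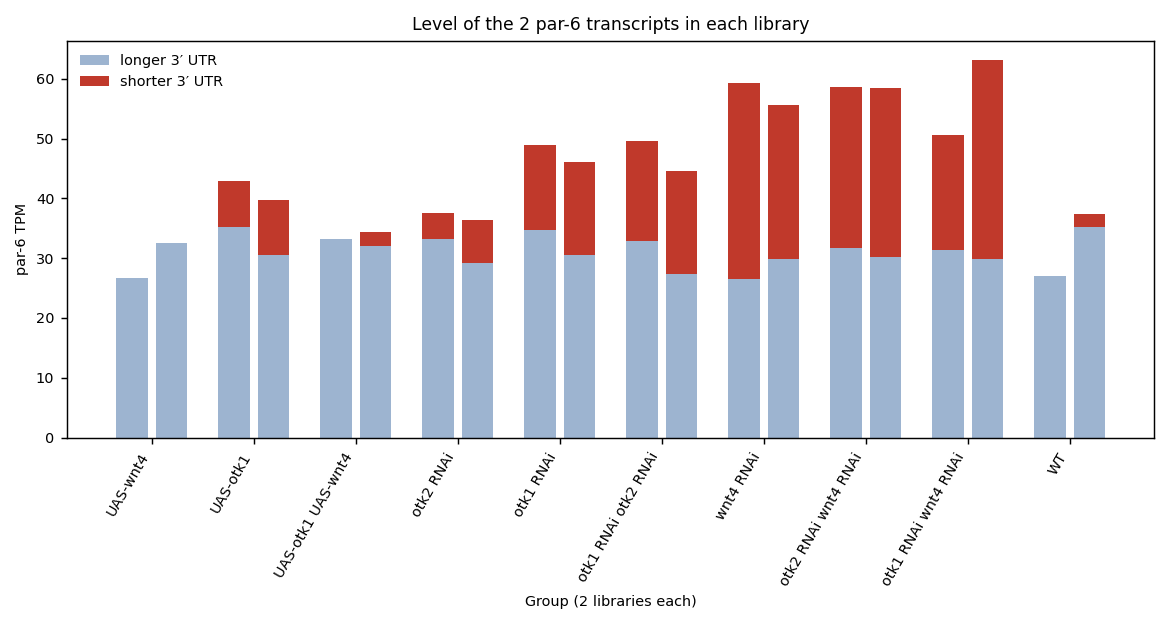
TPM of par-6 in each library (y axis, from 0), in pairs of bars by group (x axis), divided into the transcripts with the longer (blue) and the shorter (red) 3′ UTR. The blue part is between 26.6 and 35.3 TPM in every library, while the red part reaches 33.4 TPM in the libraries labelled otk1 RNAi wnt4 RNAi and is 0 and 2.05 TPM in WT.

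Genes that work with the polarity proteins were counted from 4 lists, 41 genes in all, every one of them tested. In the libraries labelled otk1 RNAi wnt4 RNAi, 8 of 10 apical partners passed against WT, beside 62.2% of all genes tested (4 higher and 4 lower, median log2 change 0.17, all genes -0.08). The small GTPase Cdc42, which binds Par-6, was higher (0.41 ± 0.12, adjusted p = 0.0102), as was the junction scaffold Magi (0.47 ± 0.15). The FERM protein gene ex (-1.44 ± 0.17, adjusted p = 3.59e-05) and the apical spectrin kst (-1.13 ± 0.20) fell, and so did alpha-Spec (-0.64 ± 0.16). Of 10 adherens junction genes 4 were higher, led by p120ctn (0.85 ± 0.23), the GTPase Rap1 (0.70 ± 0.11) and alpha-Cat (0.61 ± 0.15), and 2 were lower, Vinc (-0.63 ± 0.15) and jub (-0.44 ± 0.11).

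Basolateral partners went mostly down in the same comparison. Of 11 genes 7 were lower and 2 higher (median -0.74, all genes -0.08), where 31.4% and 30.9% of all genes were. The septate junction gene cora (-0.98 ± 0.19, adjusted p = 0.000786), the Dlg1-binding gukh (-0.98 ± 0.15) and the adhesion molecule gene Nrg (-0.81 ± 0.18) fell, and Ank (0.48 ± 0.10) and the kinase gene Lkb1 (0.32 ± 0.12) rose. In that group scrib, dlg1 and yrt were themselves higher in CPM, while scrib and dlg1 were not above both WT libraries in TPM. The median of the partners was also below that of all genes where none of them was called. It was -0.366 in UAS-otk1, -0.237 in otk2 RNAi, -0.155 in UAS-otk1 UAS-wnt4 and -0.138 in UAS-wnt4 (all genes -0.038, -0.003, 0.019 and -0.004). No fit of the partners with the stage score as a covariate is given here. The count of lower partners was 8 in the libraries labelled wnt4 RNAi, 7 in otk1 RNAi, 7 in those labelled otk2 RNAi wnt4 RNAi and 5 in otk1 RNAi otk2 RNAi, where 29.5%, 24.5%, 27.0% and 24.4% of all genes tested were lower. In the direct comparison of otk1 RNAi wnt4 RNAi with otk1 RNAi, 1 basolateral partner was lower and 1 higher, beside 11.7% and 19.5% of all genes tested. Of 10 genes of asymmetric neuroblast division, which share the Par proteins and L(2)gl, 3 were higher against WT in the libraries labelled otk1 RNAi wnt4 RNAi, Galphai (1.08 ± 0.16), pins (0.99 ± 0.15) and brat (0.53 ± 0.14), and 3 lower, insc (-1.22 ± 0.23), pros (-1.15 ± 0.18) and mira (-0.56 ± 0.20).

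In otk2 RNAi against WT only 1 of the 41 genes passed, the beta-catenin gene arm (-1.05 ± 0.11, adjusted p = 0.000377), beside 1.78% of all genes tested. None passed in UAS-wnt4, UAS-otk1 or UAS-otk1 UAS-wnt4, where 0.61%, 2.84% and 4.82% of all genes tested did. At such shares the absence of calls is no result about these genes.

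Genes whose pattern over the 20 libraries lay nearest to a polarity gene were found by the root mean square difference of log2 CPM, each gene centred on its mean, among 5864 genes averaging 100 counts or more. The 20 libraries share the groups and the stage differences, so the distances describe these libraries only. Yrt was nearest to lgs (0.046, where the SD of yrt itself was 0.35) and par-6 to wls (0.069, SD 0.41), the gene for a Wnt secretion factor. Sdt was nearest to bowl (0.078, SD 0.30), dlg1 to RtGEF (0.055), baz to MTA1-like (0.067), aPKC to indra (0.072), scrib to Sf3b3 (0.074) and crb to hzg (0.075). The second nearest were Rcd1 for yrt, PIG-T for par-6, svp for sdt, AGO1 for dlg1, Su(Tpl) for baz, ari-1 for aPKC, RhoGAP93B for scrib and PIG-O for crb. L(2)gl (Rab2 and Cip4, 0.099 each) and Patj (IntS2 0.13, Vps45 0.14) had no gene as near. Among the polarity genes the nearest pairs were scrib with dlg1 (0.096) and aPKC with par-6 (0.11).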

How the data were processed

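RNA of whole embryos from 10 groups of 2 libraries was analysed, grouped by the deposited labels. The authors aligned reads with STAR 2.7.1a to dm6 (annotation BDGP6.22 release 97) and estimated an expected count, a TPM and a mean transcript length per gene with RSEM 1.3.1. Deposited expected counts were rounded (11.6% were not whole). Deposited TPM were used for levels between genes. The deposited lengths (abundance-weighted mean transcript length, in bases) were read as a measure of transcript mix, since 99.6% of 10205 genes with 1 transcript had the length annotated in release 115.

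Gene types that the study removes (426 genes, 5.99 to 10.9% of counts) were left out, and the 11154 genes averaging 10 counts or more entered the tests. After TMM scaling, edgeR 4.0.16 was run in its quasi-likelihood form, all 20 libraries in 1 fit (common dispersion 0.0336, 10 residual and 4.31 prior degrees of freedom), with Benjamini-Hochberg adjusted p under 0.1. Changes are log2 fold changes ± SE. The smallest two-sided p of an exact permutation test at this group size is 0.333. Lengths were tested with limma 3.58.1. Scripts were checked on simulated counts. Depth was 33641557 to 41753919 counts per library, and its effect on precision was not tested by thinning. R 4.3.3, DESeq2 1.42.0, Python 3.11.15, pandas 2.3.3 and numpy 2.4.6 were used.

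The polarity genes were taken by symbol, but the set and all lists were chosen with earlier results of these data known, and none is independent support. Named besides the 10 genes were the targeted genes, up to 3 genes per list and direction with the largest change past the threshold in otk1 RNAi wnt4 RNAi and in otk2 RNAi against WT, and the 2 genes nearest in pattern to each polarity gene. A gene that this rule names among the apical partners is not reported here, though the counts of its list include it. In the stage list nos and Toll had no match. Alternatives were the stage score added as covariate, DESeq2, RLE scaling, no filter, a block for replicate number, fits restricted to the compared groups, and omission of each library in turn. The FPKM column, the imaging and the cuticle data were not used here.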

Additional observations from a re-analysis of the deposited data

Results flagged for a closer look

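Patj was the only polarity gene whose change with the wnt4 RNAi label differed between embryos with and without the otk1 hairpin by a test of the difference itself (interaction term of -0.70 ± 0.20 on the log2 scale, edgeR adjusted p = 0.0514). Its CPM was 65.2 and 50.1 in the libraries labelled otk1 RNAi wnt4 RNAi against 99.2 and 100.1 in otk1 RNAi, and 64.5 and 71.2 in those labelled wnt4 RNAi against 65.6 and 78.7 in WT. Over the fits with other settings the adjusted p ran from 0.0125 (DESeq2) to 0.745 (stage score as a covariate).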

How the results depend on the processing

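Counts of polarity genes called changed by over 1.5 times under these settings, and the cause was not tested. Adding the stage score as a covariate gave counts against WT of 1 in the libraries labelled wnt4 RNAi, 0 in otk1 RNAi, 4 in those labelled otk1 RNAi wnt4 RNAi, 0 in those labelled otk2 RNAi wnt4 RNAi and 0 in otk1 RNAi otk2 RNAi. In that fit they were also 0 in otk2 RNAi against otk1 RNAi, 0 in otk1 RNAi otk2 RNAi against otk2 RNAi, 3 in otk2 RNAi wnt4 RNAi against otk2 RNAi and 0 for the interaction of otk1 RNAi and wnt4 RNAi, and baz in otk1 RNAi against WT turned to -0.10 (adjusted p = 0.892). Calls over all genes fell in that fit too, to 3.34% in wnt4 RNAi, 0.592% in otk1 RNAi, 33.2% in otk1 RNAi wnt4 RNAi, 1.64% in otk2 RNAi wnt4 RNAi and 0.394% in otk1 RNAi otk2 RNAi against WT. They were 2.88%, 1.87% and 12.4% in the 3 direct comparisons and 0.045% for the interaction. A fit of only the groups compared has fewer libraries to estimate the spread and gave 5 in wnt4 RNAi, 3 in otk1 RNAi, 5 in otk1 RNAi wnt4 RNAi and 1 in otk1 RNAi otk2 RNAi against WT, 2 in UAS-otk1 against otk1 RNAi, and 0 both in otk1 RNAi otk2 RNAi against otk2 RNAi and for the interaction with wnt4. Fits of only the groups compared called 44.7%, 30.2%, 44.8% and 21.4% of all genes tested against WT, in the order given. They called 8.55% in UAS-otk1 against otk1 RNAi, 3.57% in otk1 RNAi otk2 RNAi against otk2 RNAi and 10.9% for the interaction. DESeq2 gave 3 in otk2 RNAi and 2 in UAS-otk1 against otk1 RNAi, beside 9.03% and 5.5% of all genes tested. Without the filter on low counts, 0 were called in otk2 RNAi against otk1 RNAi and in otk1 RNAi otk2 RNAi against otk2 RNAi. The shares of all genes tested were 3.65% and 6.32% there. The share of all genes called against WT also moved by over 1.5 times in groups with no polarity gene called, over all settings from 0.009% to 1.57% in UAS-wnt4, 0.17% to 35.9% in UAS-otk1, 0.386% to 18.9% in UAS-otk1 UAS-wnt4 and 0.215% to 21.5% in otk2 RNAi, each time highest without WT replicate 2.

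Over the fits that left out 1 library, the counts against WT ran from 5 to 8 in wnt4 RNAi, 2 to 7 in otk1 RNAi, 5 to 9 in otk1 RNAi wnt4 RNAi, 4 to 7 in otk2 RNAi wnt4 RNAi, 2 to 7 in otk1 RNAi otk2 RNAi, 0 to 3 in UAS-otk1 and 0 to 2 in otk2 RNAi. WT replicate 1 decided the low ends in wnt4 RNAi (5), otk1 RNAi (2), otk2 RNAi wnt4 RNAi (4) and otk1 RNAi otk2 RNAi (2), otk1 RNAi replicates 1 (3) and 2 (2) and otk1 RNAi otk2 RNAi replicate 1 (3) also lowered their group's count, and replicate 2 of otk1 RNAi wnt4 RNAi lowered its count to 5. In the direct comparisons the ranges were 3 to 8 (otk1 RNAi wnt4 RNAi against otk1 RNAi), 1 to 4 (otk2 RNAi wnt4 RNAi against otk2 RNAi), 0 to 1 (otk1 RNAi otk2 RNAi against otk2 RNAi) and 0 to 0 (otk2 RNAi against otk1 RNAi), and for the interaction of otk1 RNAi and wnt4 RNAi 0 to 3. Where this left a group with 1 library, that library was assumed to vary like the other groups. Calls over all genes moved in these fits too. Whether the polarity genes depended on single libraries more than other genes was not tested.

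The groups share replicate numbers, but nothing says that a number marks a shared collection. Over 45 pairs of groups the correlation of same-numbered deviations was -0.23 to 0.63 (median 0.06), over 0.1 in 17 pairs and under -0.1 in 5. Pairing by number was thus neither given nor seen throughout, and a shared collection behind a number cannot be told from these data. With the replicate number as a block, 2 polarity genes were called in otk2 RNAi against otk1 RNAi, beside 5.97% of all genes tested. In otk1 RNAi otk2 RNAi against otk2 RNAi 1 was called, beside 9.63%. No count of calls in the other comparisons moved by over 1.5 times. For single genes, DESeq2 added 6 calls and lost 0 of 160 tested, RLE scaling lost 1, no filter lost 5 and the covariate lost 36 beside the call of baz that turned. Each polarity gene averaged at least 2532.6 counts per library, and no fit at lower depth was made.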
